A study of Mus musculus with 6 samples.

Results

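The genes described here are 10 salivary-type secretory genes, measured in mammary tumours. They are Klk1, Amy1, Car6, Dnase1, Bpifa2, Cst10, Pip, Mucl1, Mucl2 and Smr3a. No salivary gland was measured, so the name of the set is only a label. All probe sets annotated to 1 of these symbols alone were taken, which gave 13 of 22626 probe sets and 10 of 12393 genes. Klk1 had 3 probe sets, Pip had 2 and each of the other 8 genes had 1. The genes were chosen on their log2 values in these 6 tumours, because several vary widely between them, so their values and ranges are a description and carry no test. No numerical threshold was used to choose them.

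The study compared mammary tumours of adult female F1 mice from 2 outcrosses. In the AKR F1 group (n = 3) one parent was the inbred strain AKR/J, and in the DBA F1 group (n = 3) it was DBA/2J. In both groups the other parent carried PyMT, the polyomavirus middle T antigen, an oncogene that gives mice mammary tumours, so no group lacks the transgene. The labels do not give the promoter that drives it, the strain of the PyMT parent, or whether the tumours of a cross came from different animals. The p-values therefore cover the spread between the tumours sampled, which may be technical. Each sample was snap-frozen tumour tissue on 1 Affymetrix array, and the question put to the arrays is how baseline expression in tumours differs by cross.

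Salivary glands are built of acini, whose cells pack proteins into granules and release them into ducts. Their products digest starch, buffer the mouth, coat its surfaces and act on microbes, and in mice the granular ducts of the submandibular gland add a large family of kallikrein proteases. The mammary gland is a skin-derived gland built on the same plan, and some proteins of this kind, such as PIP and carbonic anhydrase VI, are also known from human breast or milk.

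Values are log2 expression values, so 1 unit is a doubling. Array medians lay between 7.52 and 7.57. AKR F1 replicate 2 stood apart from the other arrays before any of the genes is considered. Its values had the smallest SD, at 1.76 against 1.90 and 1.91 on the other AKR arrays and 1.98 to 2.02 on the DBA arrays. It held the highest value of 32.4% of all probe sets, and among the probe sets with means below the 25th percentile it lay a median of 0.23 above the mean of the other arrays. A model of array quality gave it a weight of 0.192, the lowest of the 6, against 0.683 to 2.81 for the others. Results are therefore given with and without it. The luminal epithelial genes Epcam and Krt8 were well above the array median on every array: Epcam, an epithelial adhesion gene, read 12.78 to 13.17 and the keratin gene Krt8 12.13 to 12.75.

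Promoter windows from RefSeq (build GRCm38.p6) were found for 9 of the 10 genes, 11 windows in all, each from 250 bases before the annotated start to 50 bases after it. Mucl1 had none. Those of Amy1, Bpifa2, Pip, Car6, Mucl2 and Smr3a are shown because these genes still ranged over more than 3 log2 units without AKR F1 replicate 2. Both annotated starts of Amy1 are given, since mouse Amy1 is known to use separate promoters, of which the upstream one is the strong promoter of the parotid gland. Capitals mark matches, on either strand, to the TATA box core TATAAA, the E-boxes CAGCTG and CATATG, the steroid receptor hexamer AGAACA and the STAT site TTCNNNGAA. No matches overlapped.
Amy1, upstream start, minus strand, chr3:113577701-113578000: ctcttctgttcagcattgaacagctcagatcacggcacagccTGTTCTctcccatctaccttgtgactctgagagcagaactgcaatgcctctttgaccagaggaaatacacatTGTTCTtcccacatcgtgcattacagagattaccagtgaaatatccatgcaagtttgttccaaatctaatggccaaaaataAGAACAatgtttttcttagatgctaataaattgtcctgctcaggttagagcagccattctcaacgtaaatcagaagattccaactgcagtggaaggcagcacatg
Amy1, downstream start, minus strand, chr3:113574713-113575012: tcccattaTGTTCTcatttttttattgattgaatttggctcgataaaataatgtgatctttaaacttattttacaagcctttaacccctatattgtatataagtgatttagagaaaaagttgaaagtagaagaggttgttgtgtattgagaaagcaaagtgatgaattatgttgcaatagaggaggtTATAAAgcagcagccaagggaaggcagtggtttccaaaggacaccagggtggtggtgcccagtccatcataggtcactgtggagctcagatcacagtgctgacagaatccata
Bpifa2, plus strand, chr2:154008026-154008325: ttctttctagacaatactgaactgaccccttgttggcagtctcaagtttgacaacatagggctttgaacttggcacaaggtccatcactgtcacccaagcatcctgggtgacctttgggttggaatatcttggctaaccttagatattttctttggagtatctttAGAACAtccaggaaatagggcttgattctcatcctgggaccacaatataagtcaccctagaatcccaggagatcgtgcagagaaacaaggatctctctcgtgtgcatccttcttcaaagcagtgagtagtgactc
Pip, plus strand, chr6:41847299-41847598: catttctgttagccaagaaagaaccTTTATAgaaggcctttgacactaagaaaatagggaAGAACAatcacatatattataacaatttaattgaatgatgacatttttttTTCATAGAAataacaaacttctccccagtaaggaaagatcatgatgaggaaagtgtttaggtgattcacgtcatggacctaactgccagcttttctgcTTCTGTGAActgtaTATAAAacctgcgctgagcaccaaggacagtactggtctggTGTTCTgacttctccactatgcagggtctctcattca
Car6, minus strand, chr4:150201086-150201385: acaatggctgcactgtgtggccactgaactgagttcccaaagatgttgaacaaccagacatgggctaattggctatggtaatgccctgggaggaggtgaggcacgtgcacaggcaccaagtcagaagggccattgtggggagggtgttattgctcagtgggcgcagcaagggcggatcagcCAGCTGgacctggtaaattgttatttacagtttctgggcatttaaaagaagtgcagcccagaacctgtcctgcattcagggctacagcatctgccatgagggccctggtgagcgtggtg
Mucl2, minus strand, chr15:103899263-103899562: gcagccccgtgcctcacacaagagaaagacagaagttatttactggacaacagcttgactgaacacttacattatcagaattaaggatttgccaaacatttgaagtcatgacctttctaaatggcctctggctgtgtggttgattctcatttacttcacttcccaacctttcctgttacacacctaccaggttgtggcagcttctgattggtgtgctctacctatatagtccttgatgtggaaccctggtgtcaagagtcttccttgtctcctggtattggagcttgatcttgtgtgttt
Smr3a, plus strand, chr5:88002275-88002574: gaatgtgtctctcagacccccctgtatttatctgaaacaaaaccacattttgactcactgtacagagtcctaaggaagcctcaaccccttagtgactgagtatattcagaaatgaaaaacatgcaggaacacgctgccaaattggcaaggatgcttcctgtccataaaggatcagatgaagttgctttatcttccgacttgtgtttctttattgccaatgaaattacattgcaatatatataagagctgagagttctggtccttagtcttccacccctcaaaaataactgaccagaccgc

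The hexamer AGAACA was found in 6 of the 11 windows, against 19.0% of all 32851 promoter windows, and 3 of its matches lay in the upstream Amy1 window. The TATA box core was found in 4 windows (13.6% of all windows hold it). The windows of Dnase1 overlap and count the same matches more than once, so by gene the hexamer was found in 4 of 9 and the TATA box core in 3 of 9. In Pip, a match to it began 28 bases before the start. TTCNNNGAA was found in the window of Pip alone among these genes, with 2 matches, and 8.30% of all windows hold it. CAGCTG occurred in the window of Car6 only (16.3% of all windows) and CATATG in none (3.91% of all windows). The windows of Klk1, Cst10, Mucl2 and Smr3a held no match to any of these letters. A match is a description of the sequence and does not show binding.

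All 10 genes had their highest value in the same tumour, AKR F1 replicate 2. The mean over the genes, each at its brightest probe set, was 7.22, 12.20 and 5.94 in AKR F1 tumours, against 7.82, 6.02 and 7.48 in DBA F1 tumours. At 9 of the 13 probe sets, covering 8 genes, the value on AKR F1 replicate 2 exceeded every other array by more than 2 log2 units. Only 25 of all 22626 probe sets did so (0.11%), but the genes were chosen for such spread, so nothing is read from that share. Of the 78 single values, 44 lay below the 25th percentile of their array. No detection calls were used, so values that low may be background.

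**Figure D1:**
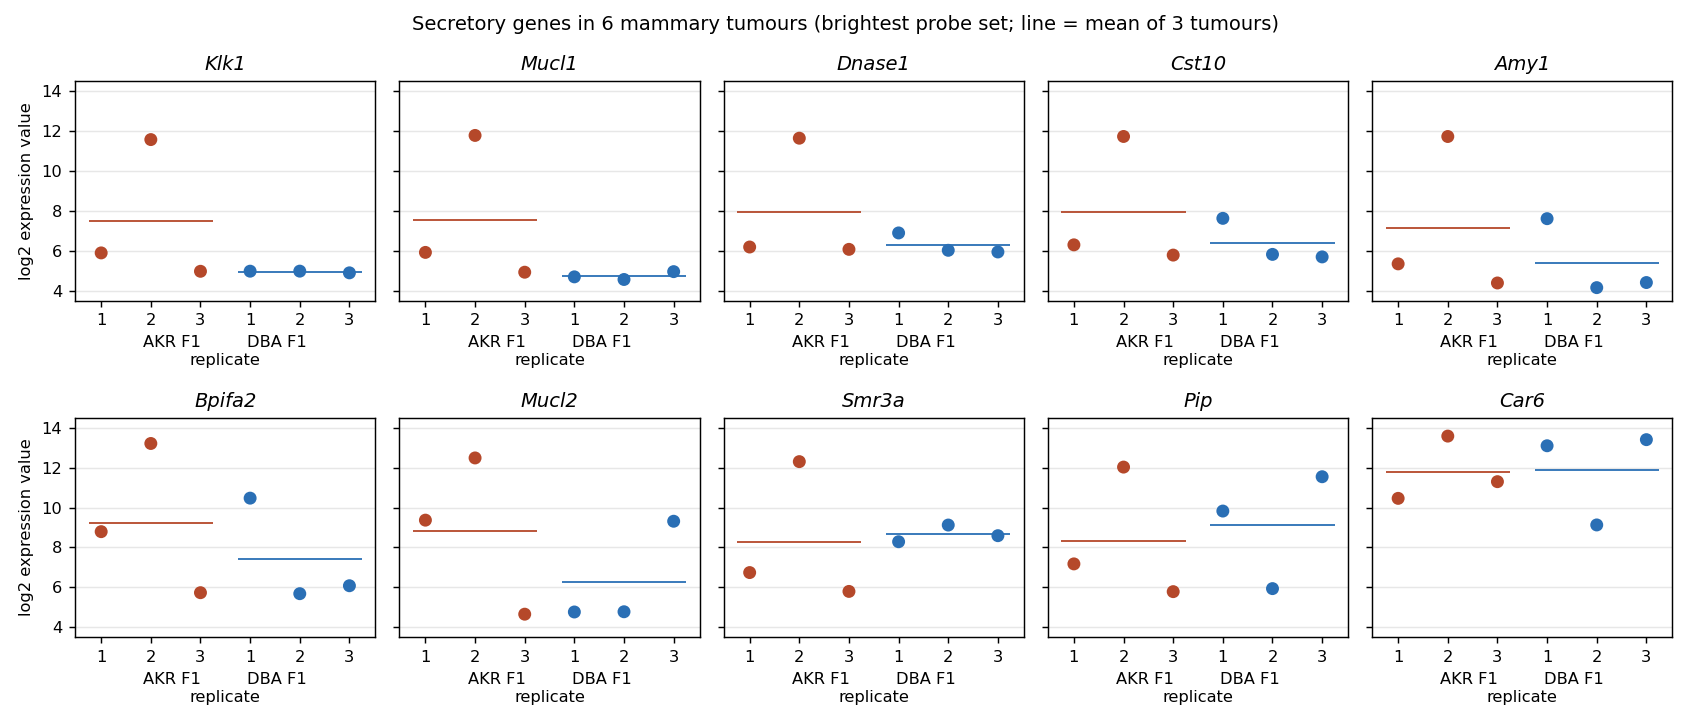
Log2 expression value (y axis) of the brightest probe set of each gene in the 3 AKR F1 and the 3 DBA F1 tumours (x axis, replicate number). Points are single tumours and lines are means of 3; AKR F1 replicate 2 is the highest point in all 10 panels, whereas the tumour in second place changes from gene to gene.

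The enzymes come first. Klk1, the tissue kallikrein that releases kinins from kininogen, read 5.89, 11.57 and 4.97 in AKR F1 tumours, against 4.97, 4.98 and 4.89 in DBA F1 tumours at its brightest probe set (1448107_x_at). A further probe set of Klk1 (1415837_at) read 5.43, 11.52 and 4.94 in AKR F1 tumours, against 5.02, 5.05 and 4.63 in DBA F1 tumours. At both, a single tumour was high and the other 5 lay close together. AKR F1 replicate 2 was 5.68 log2 units above the next array at the brightest Klk1 probe set and 6.09 at the other, but those next values lay below the 25th percentile of their array and may be background, so the true ratio is not known. The remaining Klk1 probe set (1455977_x_at) read 5.46, 5.89 and 5.13 in AKR F1 tumours, against 5.01, 5.12 and 4.94 in DBA F1 tumours. It went the same way but spanned only 0.95. The suffix x marks probe sets that can also bind related transcripts, and the kallikreins are a family of near-identical genes. The values of 1448107_x_at and 1455977_x_at therefore cannot be assigned to Klk1 alone. The probe set 1415837_at lacks the suffix and had the same single high tumour, but whether it binds relatives was not tested.

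Amy1, the amylase of saliva, read 5.34, 11.72 and 4.38 in AKR F1 tumours, against 7.60, 4.15 and 4.40 in DBA F1 tumours. DBA F1 replicate 1 was in second place, 2.26 above the third. The pancreatic amylases shared 1 probe set annotated to several Amy2 genes, and it read 4.19, 4.34 and 4.04 in AKR F1 tumours, against 4.03, 4.04 and 4.05 in DBA F1 tumours. Those values lay at the dim end of every array, and nothing here shows that this probe set responds.

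Dnase1, a secreted endonuclease that is abundant in the mouse parotid gland, read 6.18, 11.64 and 6.07 in AKR F1 tumours, against 6.89, 6.02 and 5.94 in DBA F1 tumours. Its order was that of Amy1 at the top, with DBA F1 replicate 1 second, but the step from there to the lowest array was 0.95 for Dnase1, against 3.46 for Amy1.

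Car6, the secreted carbonic anhydrase of saliva, behaved differently. It read 10.46, 13.58 and 11.30 in AKR F1 tumours, against 13.10, 9.13 and 13.40 in DBA F1 tumours. It stood above the array median in all 6 tumours, and AKR F1 replicate 2 led DBA F1 replicate 3 by 0.18. DBA F1 replicate 2 was lowest, 19.3-fold below DBA F1 replicate 3.

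Among the binding proteins and protease inhibitors, Bpifa2 encodes parotid secretory protein, of the family that binds bacterial lipids. Bpifa2 read 8.79, 13.21 and 5.73 in AKR F1 tumours, against 10.47, 5.69 and 6.08 in DBA F1 tumours. Both crosses therefore held high and low tumours. DBA F1 replicate 1 was 4.79 log2 units above DBA F1 replicate 2, the lowest.

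Cst10, a member of the cystatin family of cysteine protease inhibitors, read 6.29, 11.72 and 5.78 in AKR F1 tumours, against 7.62, 5.81 and 5.69 in DBA F1 tumours. Its 3 leading tumours were those of Amy1 and Bpifa2, in the same order.

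Pip, the prolactin-induced protein, which in human breast marks apocrine differentiation, read 7.18, 12.03 and 5.79 in AKR F1 tumours, against 9.82, 5.94 and 11.54 in DBA F1 tumours at its brightest probe set (1449212_at). AKR F1 replicate 2 led by only 0.48, and the highest tumour lay 6.24 log2 units above the lowest. The dimmer Pip probe set (1427614_at) read 5.59, 6.72 and 5.72 in AKR F1 tumours, against 6.09, 5.31 and 6.98 in DBA F1 tumours. It had the same 3 tumours on top, with DBA F1 replicate 3 first.

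The mucin-like and proline-rich products split further. Mucl1, a mucin-like salivary protein, read 5.91, 11.77 and 4.92 in AKR F1 tumours, against 4.69, 4.56 and 4.95 in DBA F1 tumours. Its profile was the nearest to that of Klk1 among the 10 genes. Its relative Mucl2 read 9.37, 12.49 and 4.66 in AKR F1 tumours, against 4.77, 4.78 and 9.31 in DBA F1 tumours. Mucl2 was thus high in 3 tumours and at the low end in the other 3, with a range of 7.83. The ranges of Amy1 (7.57) and Bpifa2 (7.52) were close to it, and all 3 rest on lowest values that may be background, so their order is not firm. Mucl1 and Mucl2 are neighbours on chromosome 15 among the genes measured, yet AKR F1 replicate 1 and DBA F1 replicate 3, which were high for Mucl2, read 5.91 and 4.95 for Mucl1.

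Smr3a, an androgen-regulated product of the submandibular gland, read 6.74, 12.30 and 5.80 in AKR F1 tumours, against 8.29, 9.12 and 8.59 in DBA F1 tumours. All DBA F1 tumours lay between the top AKR F1 tumour and the other AKR F1 tumours. The Smr3a probe set carries the suffix s, which marks probes shared with other transcripts, so it may also bind relatives. Smr2, its neighbour and relative, read 8.92, 8.41 and 8.56 in AKR F1 tumours, against 9.46, 10.10 and 10.44 in DBA F1 tumours. For Smr2 the crosses did not overlap, with a log2 difference of -1.37 that did not pass (adjusted p = 0.0857 by limma), and AKR F1 replicate 2 was its lowest tumour. Smr2 was named because it adjoins Smr3a, after its values were seen.

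**Figure D2:**
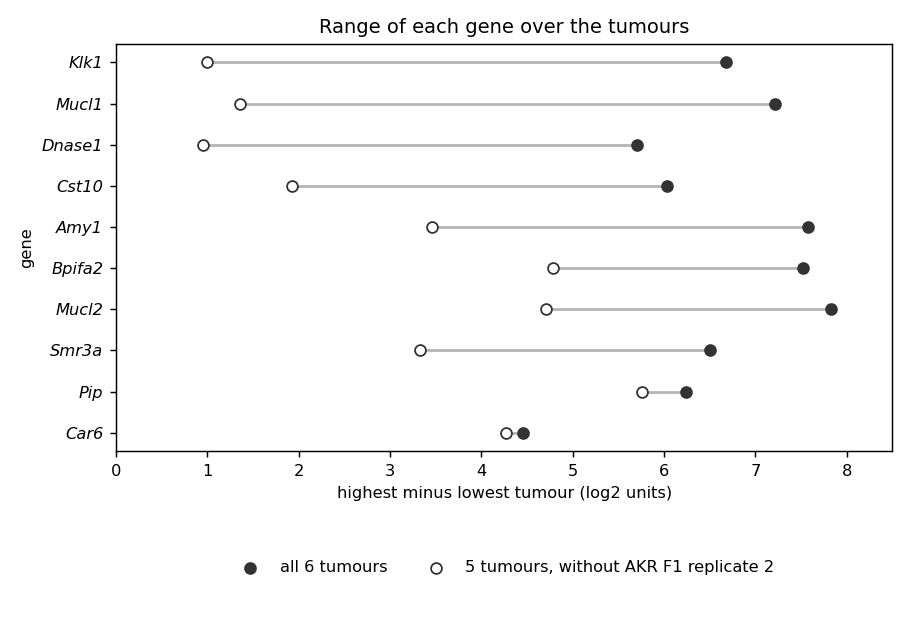
Range of each gene, as the highest minus the lowest tumour in log2 units (x axis), over all 6 tumours (filled) and over the 5 tumours without AKR F1 replicate 2 (open). Klk1, Mucl1 and Dnase1 shrink to between 0.95 and 1.36, whereas Pip and Car6 keep 5.76 and 4.27.

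Without AKR F1 replicate 2 the ranges shrank by very different amounts. Over the 5 remaining tumours the range was 0.95 for Dnase1, 0.999 for Klk1, 1.36 for Mucl1 and 1.93 for Cst10. It was 3.32 for Smr3a, 3.46 for Amy1, 4.27 for Car6, 4.71 for Mucl2, 4.79 for Bpifa2 and 5.76 for Pip. The median range of all probe sets was 0.70 over 6 tumours and 0.46 over these 5. Among the 13 probe sets, 11 lay above the 99th percentile of all ranges with AKR F1 replicate 2 and 6 without it, which restates how they were chosen.

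Likeness between profiles was measured as the root mean square difference of log2 values over the 6 arrays, after each profile was centred on its mean. The closest pair was Klk1 and Mucl1 (0.21), followed by Cst10 and Dnase1 (0.35). Amy1 was nearest to Cst10 (0.65) and Bpifa2 to Amy1 (0.80), and these 4 were the genes with DBA F1 replicate 1 in second place. Pip was nearest to Car6 (1.28), the pair with DBA F1 replicate 3 in second place. Mucl2 had no near partner, at 1.80 from Mucl1 and at most 2.66 from Car6. Without AKR F1 replicate 2 the Klk1 and Mucl1 distance was 0.19, that of Cst10 and Dnase1 0.38 and that of Pip and Car6 1.17. For Klk1 and Mucl1 all 5 values left lay below the 25th percentile of their array and may be background. For Cst10 3 such values did, and for Dnase1 4. Low, flat profiles lie close together whatever the genes, so nothing is read from the small distances without that array. These groupings were made after the values were seen and have no test.

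**Figure D3:**
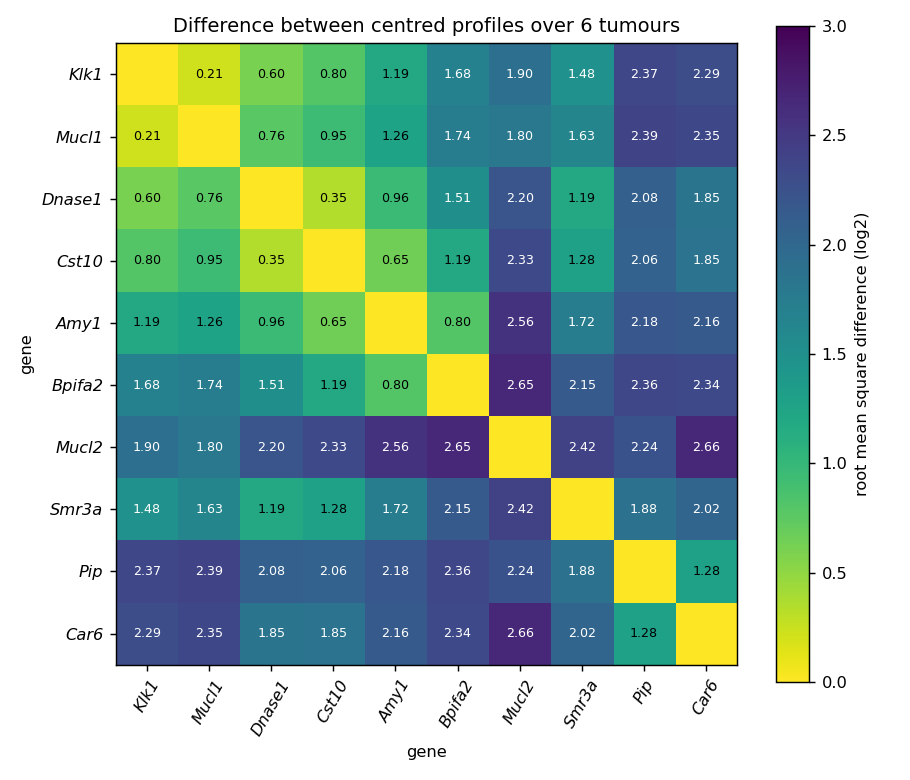
Root mean square difference in log2 units between the centred profiles of each pair of genes over 6 tumours (rows and columns are genes, darker is further apart). Klk1, Mucl1, Dnase1, Cst10 and Amy1 lie within 1.26 of each other, with Klk1 and Mucl1 closest at 0.21, and Mucl2 and Car6 are furthest apart at 2.66.

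Between the crosses, 0 of the 13 probe sets passed limma at an adjusted p of 0.05, and 0 had an unadjusted p under 0.05. Of all probe sets, 0.0972% passed and 26.1% had an unadjusted p under 0.05. The smallest adjusted p among the 13 was 0.192 by limma. At 1 of the 13, the dim Klk1 probe set, the crosses did not overlap, against 39.2% of all probe sets. For Amy1 and Bpifa2 the spread in both crosses was larger than the difference. Amy1 averaged 7.15 ± 3.99 in the AKR F1 cross and 5.39 ± 1.93 in the DBA F1 cross (SD over 3 tumours each). Bpifa2 averaged 9.25 ± 3.76 in the AKR F1 cross and 7.41 ± 2.66 in the DBA F1 cross (SD over 3 tumours each). For Klk1 and Mucl1 the spread lay in the AKR F1 cross: the brightest Klk1 probe set averaged 7.47 ± 3.57 there and 4.95 ± 0.05 in the DBA F1 cross, and Mucl1 averaged 7.54 ± 3.70 in the AKR F1 cross and 4.73 ± 0.20 in the DBA F1 cross. The dim Klk1 probe set averaged 5.50 ± 0.38 in the AKR F1 cross and 5.02 ± 0.09 in the DBA F1 cross.

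The largest log2 difference of AKR minus DBA was that of Mucl1, 2.80 (SE 1.64, adjusted p = 0.284 by limma), and it was 0.69 without AKR F1 replicate 2. Mucl2 differed by 2.55 and the brightest Klk1 probe set by 2.53, which became 0.73 and 0.48 without that array. The differences of Bpifa2 (1.83), Amy1 (1.76), Dnase1 (1.68) and Cst10 (1.56) changed sign without it, to -0.15, -0.52, -0.16 and -0.34. Over the 13 probe sets the median difference was 1.68 with the array and -0.16 without it, against 0.05 for all probe sets in both cases, and 9 lay higher in AKR F1 tumours by the mean with it and 5 without it.

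Of the 10 genes, Smr3a, Pip and Car6 lay lower in AKR F1 tumours by the mean. Smr3a differed by -0.39 with all arrays and by -2.40 without AKR F1 replicate 2 (adjusted p = 0.0994 by limma). The remaining AKR F1 tumours then read 6.74 and 5.80 for Smr3a and did not overlap the DBA F1 tumours. Nothing is read from that, since the crosses did not overlap at 39.2% of all probe sets even with all arrays. The share without AKR F1 replicate 2 was not counted. The brightest probe set of Pip differed by -0.77 with all arrays and by -2.62 without AKR F1 replicate 2, and Car6 by -0.10 and by -0.997, and none of these passed.

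Other genes of salivary secretion were described by lists. Of 25 saliva protein genes outside the 10, 20 were measured, and 0 passed limma in either direction. At an unadjusted p under 0.05 by limma there were 4, where 26.1% of all probe sets were. Their median difference was 0.10, and -0.03 without AKR F1 replicate 2, against 0.05 over all genes, and the mean of the list was 8.75, 9.15 and 8.58 in AKR F1 tumours, against 8.58, 8.69 and 9.05 in DBA F1 tumours. AKR F1 replicate 2 was the highest array for 9 of the 20, where it was the highest for 32.3% of all genes.

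Prol1, a mucin-type product of the submandibular gland, read 7.67, 11.93 and 7.04 in AKR F1 tumours, against 6.54, 6.71 and 7.12 in DBA F1 tumours. It was the 1 gene of the saliva protein list that stood more than 2 log2 units above all others on AKR F1 replicate 2, at 19.1-fold. Wfdc2, a secreted protein of the whey acidic protein family, read 8.02, 8.73 and 8.06 in AKR F1 tumours, against 7.68, 10.72 and 11.77 in DBA F1 tumours. Its high tumours were DBA F1 replicates 2 and 3, of which replicate 3 was also high for Pip, Car6 and Mucl2. Dcpp1, the demilune cell and parotid protein, read 8.74, 9.46 and 7.56 in AKR F1 tumours, against 5.99, 6.01 and 5.66 in DBA F1 tumours. Here the crosses did not overlap, with a log2 difference of 2.70 that did not pass (SE 0.45, adjusted p = 0.0827 by limma). Lpo, the lactoperoxidase of saliva and milk, which was chosen after its values were seen, read 6.96, 8.54 and 6.74 in AKR F1 tumours, against 7.22, 6.66 and 6.95 in DBA F1 tumours.

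Of 21 genes of granular ducts and glandular kallikreins, 13 were measured and 0 passed limma (median difference 0.57, and 0.23 without AKR F1 replicate 2). Of these 13, 4 had an unadjusted p under 0.05 by limma, against 26.1% of all probe sets. AKR F1 replicate 2 was the highest array for 11 of them, against 32.3% of all genes, and led by more than 2 log2 units for 4. Low values as a whole were raised on that array, and 1 of the 13 lay below the 25th percentile on every array. Most of the list are kallikreins, whose probe sets may bind each other's transcripts, so the genes counted are not separate observations. Klk1b5 read 6.35, 9.35 and 5.47 in AKR F1 tumours, against 5.32, 5.21 and 5.09 in DBA F1 tumours. The cysteine-rich secretory protein gene Crisp3 read 3.92, 7.21 and 3.94 in AKR F1 tumours, against 3.83, 3.83 and 3.83 in DBA F1 tumours. Klk1b11 read 6.47, 8.88 and 6.53 in AKR F1 tumours, against 6.24, 6.27 and 6.30 in DBA F1 tumours. Each had the single high tumour seen for Klk1 and Mucl1.

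Of 23 genes of acinar secretion and ion transport 22 were measured and 0 passed limma (median difference 0.15, and 0.18 without AKR F1 replicate 2). Of these 22, 2 had an unadjusted p under 0.05 by limma, against 26.1% of all probe sets. For 4 of the 22 AKR F1 replicate 2 was the highest array (32.3% of all genes), and it led for none of them by more than 2 log2 units. Aqp5, the water channel of acini, which was chosen after its values were seen, read 12.28, 11.93 and 12.39 in AKR F1 tumours, against 12.46, 12.40 and 12.08 in DBA F1 tumours. Bhlha15, a transcription factor of secretory cells, read 9.98, 10.67 and 10.13 in AKR F1 tumours, against 10.91, 9.09 and 10.07 in DBA F1 tumours. DBA F1 replicate 1 and AKR F1 replicate 2, the leading tumours for Amy1 and Bpifa2, were also the highest for Bhlha15, within a range of 1.82. The muscarinic receptor gene Chrm1 ranged over 1.65 and was highest on AKR F1 replicate 2, by 1.22. The proton pump gene Atp6v1b1 ranged over 2.03 and was lowest there.

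Among 15 measured pancreatic acinar genes 0 passed limma (9 at an unadjusted p under 0.05, where 26.1% of all probe sets were; median difference 0.48, and 0.32 without AKR F1 replicate 2). For 12 of these 15 genes AKR F1 replicate 2 was the highest array (32.3% of all genes), though for none by more than 2 log2 units. Of the 15, 4 lay below the 25th percentile on every array, and low values as a whole were raised on AKR F1 replicate 2. The widest ranges were 2.82 for the lipase gene Cel, 1.35 for the elastase gene Cela2a and 1.33 for the trypsinogen gene Prss2. Of 36 measured relatives of the 10 genes 0 passed (5 at an unadjusted p under 0.05, against 26.1% of all probe sets). Their median difference was 0.17, and 0.03 without AKR F1 replicate 2. AKR F1 replicate 2 was the highest array for 16 of them, against 32.3% of all genes, and led for none by more than 2 log2 units. Of the 36, 8 lay below the 25th percentile on every array. The widest ranges there were those of Car3, a carbonic anhydrase of muscle and fat (6.77), Cst3 (3.20) and Bpifb1 (2.37). Cst3, or cystatin C, read 11.06, 9.83 and 11.02 in AKR F1 tumours, against 11.66, 12.75 and 13.03 in DBA F1 tumours, so its order was unlike that of Cst10. Of 19 measured gland transcription factor genes 0 passed (5 at an unadjusted p under 0.05, against 26.1% of all probe sets). Their median difference was -0.07, and 0.09 without AKR F1 replicate 2.

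By the same measure of likeness, the genes outside the 10 that came nearest to Amy1 were Chia1 (0.50), Prol1 (1.46), Klk1b5 (1.56), Crisp3 (1.68) and Klk1b16 (1.91). Chia1, the acidic chitinase, read 6.91, 12.21 and 6.16 in AKR F1 tumours, against 8.75, 6.21 and 5.96 in DBA F1 tumours. It had the 2 leading tumours of Amy1. Nearest to Mucl2 were Prol1 (1.83), Klk1b5 (2.07), Scgb1b27 (2.21), Crisp3 (2.27) and Kalrn (2.32). Scgb1b27, a secretoglobin, read 9.49, 14.01 and 9.12 in AKR F1 tumours, against 11.76, 7.86 and 13.63 in DBA F1 tumours. Its top 3 tumours were those of Pip and Car6, and its lowest was that of Car6.

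In the genome, the 2 measured genes on either side of each of the 10 gave 34 neighbours outside them. Only Klk1b5, beside Klk1, and Prol1, near Smr3a, led on AKR F1 replicate 2 by more than 2 log2 units, and the median range of the 34 was 0.86. Glycam1, a milk mucin gene next to Mucl1, read 11.33, 6.48 and 7.46 in AKR F1 tumours, against 10.21, 5.57 and 5.70 in DBA F1 tumours, an order unlike that of Mucl1 or Mucl2.

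**Figure D4:**
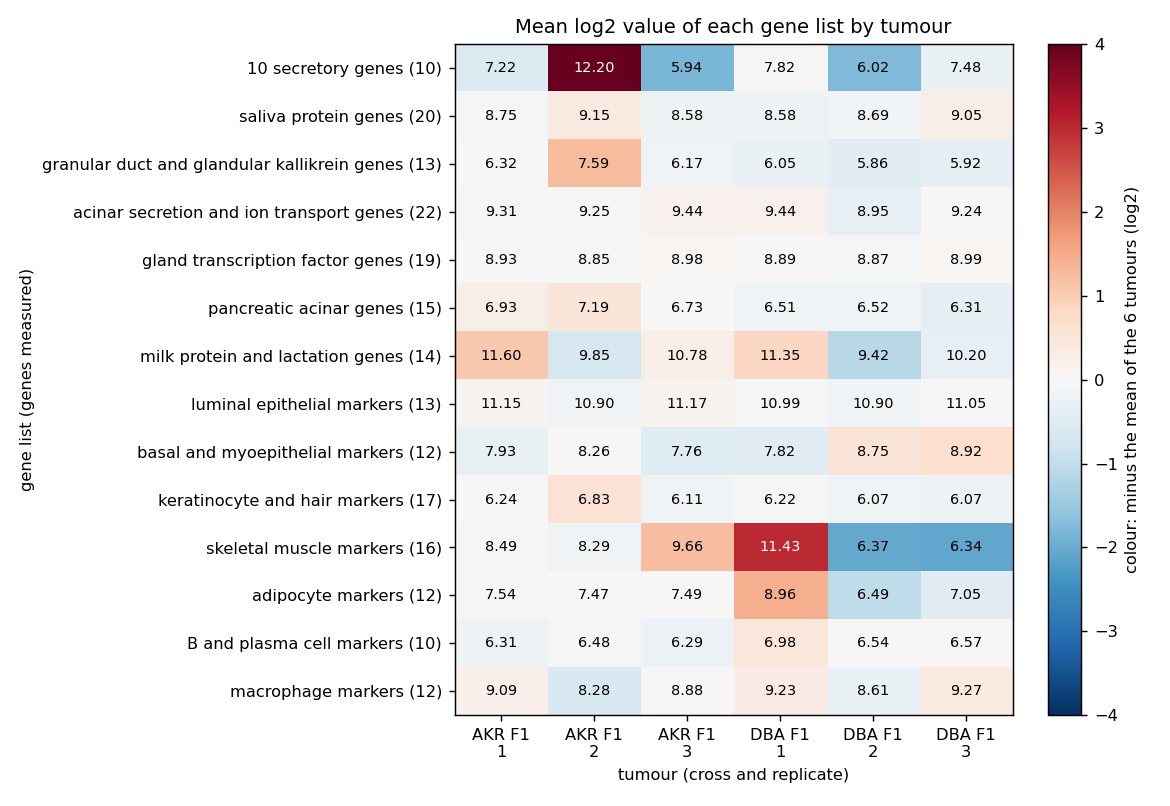
Mean log2 value of the 10 genes and of each gene list (rows, with the number of genes measured) in each tumour (columns). Numbers are means and colours show the difference from the mean of the 6 tumours. The 10 genes peak at 12.20 on AKR F1 replicate 2, while milk protein genes are at 9.85 and luminal markers at 10.90 there.

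Markers of other tissues moved with some of these tumours, and their part in the results was not tested. Skeletal muscle markers (16 of 16 measured) all peaked on DBA F1 replicate 1, and their log2 summed level was 12.60 to 14.13 in AKR F1 tumours and 10.68 to 15.72 in DBA F1 tumours. Adipocyte markers (12 of 14 measured) had a log2 summed level of 11.47 to 12.07 in AKR F1 tumours and 10.53 to 13.81 in DBA F1 tumours, again highest on DBA F1 replicate 1. That tumour was second for Amy1, Bpifa2, Cst10 and Dnase1. On AKR F1 replicate 2, where the 10 genes peaked, muscle markers had a log2 summed level of 12.60 and adipocyte markers 11.47. Both were below the other AKR F1 tumours but above DBA F1 replicates 2 and 3. Those read 10.79 and 10.68 for muscle and 10.53 and 11.16 for adipocyte markers. Of the 12 adipocyte markers, 3 were highest on AKR F1 replicate 2. Keratinocyte and hair markers (17 of 20 measured) were highest there for 14 genes, where 32.3% of all genes were. Of the 17, 7 lay below the 25th percentile on every array, and low values as a whole were raised on AKR F1 replicate 2. The log2 summed level of the list was 10.84 to 11.74 in AKR F1 and 10.84 to 10.95 in DBA F1 tumours. Sprr1b, a cornified envelope gene, read 5.58, 7.74 and 5.39 in AKR F1 tumours, against 5.17, 5.19 and 4.99 in DBA F1 tumours. It was the 1 gene of this list that led on AKR F1 replicate 2 by more than 2 log2 units. Krt10 was lowest on that array, at 6.60, and Krt1 was highest on DBA F1 replicate 1, at 7.24.

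Basal and myoepithelial markers (12 of 12 measured) had a log2 summed level of 11.95 to 12.48 in AKR F1 and 12.22 to 14.12 in DBA F1 tumours. By that sum DBA F1 replicate 2 was highest and replicate 3 next (13.62). By the mean of the list their order was reversed, at 8.75 on DBA F1 replicate 2 and 8.92 on replicate 3. The list was not uniform. The contractile gene Acta2 was highest on DBA F1 replicate 2, at 13.26, whereas the basal keratin genes Krt5 and Krt14 were lowest there, each at 7.43. The median difference of the list was -0.36, and -0.52 without AKR F1 replicate 2. Macrophage markers (12 of 12 measured) had a mean of 9.09, 8.28 and 8.88 in AKR F1 tumours, against 9.23, 8.61 and 9.27 in DBA F1 tumours, lowest on AKR F1 replicate 2. B and plasma cell markers (10 of 12 measured) had a log2 summed level of 9.82 to 10.06 in AKR F1 and 10.30 to 10.83 in DBA F1 tumours. The genes of this list did not all go that way. Their median difference was 0.17, and 0.07 without AKR F1 replicate 2, so by the median they lay slightly higher in AKR F1 tumours. Pou2af1 and Jchain lay lower in AKR F1 tumours, at differences of -3.23 and -1.47, whereas Fcer2a and Pax5 lay higher, at 0.47 and 0.42.

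Milk protein and lactation genes (14 of 16 measured) had a mean of 11.60, 9.85 and 10.78 in AKR F1 tumours, against 11.35, 9.42 and 10.20 in DBA F1 tumours, and AKR F1 replicate 2 was the highest array for none of them. Luminal epithelial markers (13 of 14 measured) had a mean of 10.90 to 11.17 in AKR F1 and 10.90 to 11.05 in DBA F1 tumours. The 1 gene of all lists that passed limma was the luminal tight junction gene Cldn4, higher in AKR F1 tumours (log2 difference 1.96, adjusted p = 0.0392). It no longer passed without AKR F1 replicate 1 (adjusted p = 0.206 by limma), replicate 2 (0.0886) or replicate 3 (0.116), or without DBA F1 replicate 3 (0.172), at differences of 1.91 to 2.09. In pieces of tissue, more cells of a type and more RNA per cell cannot be told apart.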

How the data were processed

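The deposited table holds log2 values of 22690 probe sets on 6 arrays, 1 for each tumour. The submitters' processing notes list MAS5 as well as RMA without versions, so which of them made the deposited log2 values is not known. The log2 scale was read from the values. Probe sets were named from the platform annotation where it gave 1 symbol. The 64 control probe sets were left out and no filter on low values was used. The crosses were tested against each other by limma 3.58.1 under R 4.3.3, with two-sided moderated statistics and p-values adjusted by Benjamini-Hochberg over 22626 probe sets (threshold 0.05), after a test on simulated data. Differences are AKR minus DBA, and a gene in a list stands for its brightest probe set. Replicate numbers follow the order of the samples and pair nothing.

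The genes and lists were chosen with earlier results of these data known. The rule for named genes took all probe sets of the 10 genes, the 3 widest-ranging genes of the saliva, kallikrein, acinar, pancreatic and relatives lists, any list gene that passed, and the 5 genes nearest to each of the 2 widest-ranging genes. Any other gene was named with its values already in view. The number of arrays limits the precision. Alternatives were quantile normalization, median centring, brighter probe sets only, a trended and robust prior, array weights, an adjusted p of 0.10, averaging over probe sets of 1 gene and leaving out each array. Figures were drawn with matplotlib 3.10.9.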

Additional observations from a re-analysis of the deposited data

How the results depend on the processing

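No probe set of the 10 genes passed under any setting in which it was tested. Among probe sets brighter than the median, only those of Bpifa2, Mucl2, Smr3a, Car6 and the brightest of Pip were tested. The number of all probe sets that passed, 22 as reported, was 36 after quantile normalization, 102 among probe sets brighter than the median, 3712 with array weights and 810 at an adjusted p of 0.10. It ran from 1 to 263 when single arrays were left out (1 without AKR F1 replicate 1, 2 without AKR F1 replicate 2, 11 without AKR F1 replicate 3, 263 without DBA F1 replicate 1, 1 without DBA F1 replicate 3). Among probe sets brighter than the median 31 had AKR F1 and 71 had DBA F1 as the higher cross, against 8 and 14 as reported, and 11313 probe sets were tested. The split was 19 and 7 without DBA F1 replicate 2, 28 and 235 without DBA F1 replicate 1, and 1907 and 1805 with array weights. The number of list genes that passed, 1 as reported, was 35 with array weights, 6 at an adjusted p of 0.10 and 0 to 16 when single arrays were left out, with 0 without AKR F1 replicate 1, AKR F1 replicate 2 or DBA F1 replicate 3 and 16 without DBA F1 replicate 1. The 1 gene as reported is Cldn4, whose adjusted p by limma ran from 0.00666 with array weights to 0.206 without AKR F1 replicate 1. The array weights were estimated gene by gene. The causes were not tested.

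Signs changed as follows when 1 array was left out. The difference of Amy1 ran from -0.52 to 3.14, that of Bpifa2 from -0.15 to 3.59, Cst10 from -0.34 to 2.63, Dnase1 from -0.16 to 2.63, Smr3a from -2.40 to 0.85, the brightest Pip probe set from -2.62 to 0.50, the dimmer one from -0.52 to 0.31 and Car6 from -1.47 to 0.67. Negative ends for Amy1, Bpifa2, Cst10 and Dnase1 came without AKR F1 replicate 2. Quantile normalization gave 0.0791 for Car6, against -0.10 as reported. Differences of Klk1, Mucl1 and Mucl2 kept their sign under all settings in which they were tested. Klk1 and Mucl1 were not among the probe sets brighter than the median. No paired analysis was possible because the replicate numbers only name the samples. Detection calls were not used here, so how far the lowest values lie above background is not known.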
